A study of Homo sapiens with 6 samples.

Results

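The anaphase-promoting complex, or cyclosome (APC/C), is a ubiquitin ligase assembled from many proteins, and 10 of its subunits are described here: ANAPC1, ANAPC2, ANAPC4, ANAPC5, ANAPC7, ANAPC10, ANAPC11, CDC16, CDC23 and CDC27. They were taken by gene name from a table of 58302 genes, each name matched a single row, and all 10 passed the level filter that left 11945 genes for testing (mean of at least 1 FPKM over the libraries). FPKM are reads scaled to gene length and library size. ME180 cells, an epithelial line from a human cervical carcinoma, had been treated for 48 h with an siRNA against the kinase SGK1 (siSGK1, 3 libraries) or with a control siRNA (siControl, 3 libraries). The design text calls the libraries of a group biological repeats, and they are numbered 2, 3 and 4. Both groups were thus transfected cells of a single line.

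The APC/C attaches ubiquitin to mitotic cyclins, securin and many other proteins, which the proteasome then destroys, and so it drives the exit from mitosis and holds the following G1 phase. A cullin-like subunit and a RING subunit form its catalytic core, a scaffold holds that core, and an arm of tetratricopeptide repeat (TPR) proteins binds the coactivators CDC20 or FZR1 (also called CDH1). The complex is switched mainly by its coactivators, by the spindle checkpoint and by phosphorylation. In dividing epithelial cells its substrates rise and fall through each cycle.

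Reads assigned to genes numbered 28405647 to 35242643 in siSGK1 and 27262794 to 27874948 in siControl, and mitochondrial genes took 3.38% to 3.66% of them in siSGK1 and 4.16% to 4.397% in siControl. SGK1 itself, a kinase related to AKT, was at 41.2% of its siControl level in siSGK1 (log2 change −1.07, SE 0.068, limma adjusted p = 1.88e-05). By exact permutation, two-sided, p was 0.1, and 3 against 3 libraries cannot give a smaller one. All 8 epithelial markers looked up were present, with a summed level of 4997 to 5836 FPKM in siSGK1 and 7967 to 8578 FPKM in siControl. Of 5 fibroblast markers COL1A2, DCN, LUM and PDGFRB stayed below 0.1 FPKM in every library, and the list's summed level was 4.87 to 5.72 FPKM in siSGK1 and 4.70 to 5.23 FPKM in siControl. The 4 endothelial markers summed to at most 0.903 FPKM in siSGK1 and 1.66 FPKM in siControl, with PECAM1 and KDR below 0.1 FPKM. The part of the depth, the mitochondrial share and the lower epithelial and endothelial markers in the results that follow was not tested.

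None of the 10 subunits was called changed, while genes that work with the complex mostly rose. Calls were made by limma at an adjusted p under 0.05 (Benjamini-Hochberg over all tested genes). That rule called 40.6% of all tested genes, 17.9% higher and 22.7% lower, but 0 of the 10 subunits. At an unadjusted p under 0.05 there were 4 of the 10 subunits, 2 higher and 2 lower, against 49.1% of all tested genes. The log2 changes of the subunits ran from −0.13 for ANAPC5 to 0.21 for CDC16, with a median of 0.085. The median over all tested genes was −0.0060, a value that the deposited scaling by itself sets near 0. With the deposited scaling, the 95% intervals of all 10 subunits lay between a fold of 0.834 and a fold of 1.31. They were thus within 1.5-fold either way, as were those of 83.6% of all tested genes. The standard errors had a median of 0.071 log2 units over the subunits and 0.067 over all tested genes. A missed threshold does not show that the transcripts were equal in both groups. The intervals give the changes the data allow under the deposited scaling only. TPM scaling, for example, moved the log2 change of CDC16 to 0.40 (SE 0.092). In bulk RNA, fewer cells of a type or cycle phase and less RNA per cell cannot be told apart, here and in every comparison that follows.

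**Figure D1:**
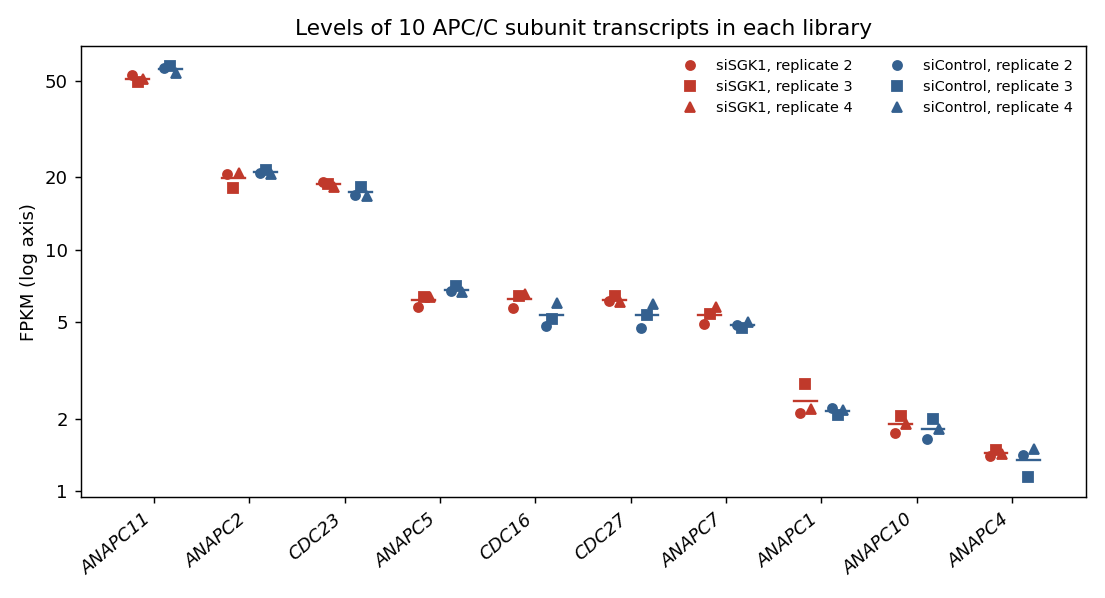
FPKM of the 10 subunit transcripts (log axis) in each library, ordered by mean level, with siSGK1 in red left of siControl in blue. Symbols mark replicates 2, 3 and 4 and the bars are group means. The groups sit side by side for every subunit, and ANAPC11 at 49.7 to 57.4 FPKM lies far above ANAPC4 at 1.15 to 1.49 FPKM.

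The transcripts of a complex whose proteins assemble in fixed proportions were at very unequal levels. Over all 6 libraries ANAPC11 was highest, at a mean of 53.6 FPKM, and ANAPC4 lowest, at 1.39 FPKM, a ratio of 38.5. In between came ANAPC2 at 20.4, CDC23 at 18.0, ANAPC5 at 6.50, CDC16 at 5.80, CDC27 at 5.78, ANAPC7 at 5.13, ANAPC1 at 2.25 and ANAPC10 at 1.85 FPKM. The ranges over libraries overlapped between ANAPC2 and CDC23, and between each neighbour from ANAPC5 to ANAPC7, so those orders do not hold beyond the spread. FPKM divides by the length of all annotated exons merged, which exceeded the longest annotated coding transcript by a factor of 1.18 for CDC27 and 4.90 for ANAPC5. Scaled to that transcript instead, ANAPC11 at 159 and ANAPC2 at 42.2 remained the highest, and ANAPC5 at 31.8 moved above CDC23 at 26.4. ANAPC1 at 3.64 became the lowest, but ANAPC4 at 3.885 lay close. This scaling gives all reads of a gene to 1 transcript, and its spread over libraries was not examined. The sum over the 10 subunits was 120.5, 117.5 and 120.2 FPKM in siSGK1, against 120.7, 124.6 and 120.6 FPKM in siControl.

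The 4 TPR subunits that stack into the arm of the complex, which receives the coactivators, all had positive log2 changes, without a call. CDC16 had 5.76, 6.41 and 6.56 FPKM in siSGK1, against 4.86, 5.19 and 6.0 FPKM in siControl. The lowest siSGK1 library lay below the highest siControl library, so the groups overlapped. Its log2 change was 0.21 (95% interval 0.022 to 0.40, adjusted p = 0.072). CDC27, the subunit that docks the coactivator's tail, had 6.11, 6.45 and 6.05 FPKM in siSGK1, against 4.73, 5.36 and 5.96 FPKM in siControl. The groups did not overlap, though the gap was narrow and control replicate 4 came close to the siSGK1 libraries. Its log2 change was 0.20 (95% interval 0.024 to 0.38, adjusted p = 0.069). Without siControl replicate 4 both CDC16 and CDC27 were called higher (log2 changes 0.29 and 0.28, adjusted p = 0.019 for each). That fit called 1920 genes higher and 2428 lower. Without siSGK1 replicate 2 CDC16 was called higher (adjusted p = 0.048), in a fit that called 1771 genes higher and 2504 lower.

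CDC23 had 19.2, 18.8 and 18.2 FPKM in siSGK1, against 16.9, 18.2 and 16.8 FPKM in siControl (log2 change 0.11, adjusted p = 0.11). Only control replicate 3 reached the siSGK1 range. ANAPC7, a further TPR protein of the arm, had 4.94, 5.43 and 5.78 FPKM in siSGK1, against 4.86, 4.75 and 5.03 FPKM in siControl (log2 change 0.13, adjusted p = 0.15). Its groups overlapped through siSGK1 replicate 2.

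The catalytic subunits had negative log2 changes, also without a call. ANAPC11, the RING protein that recruits the charged ubiquitin-conjugating enzyme, had 53.0, 49.7 and 50.9 FPKM in siSGK1, against 56.6, 57.4 and 54.0 FPKM in siControl. Every siSGK1 library lay below every siControl library. Its log2 change of −0.13 (95% interval −0.23 to −0.025) had the smallest adjusted p of the 10 subunits, 0.051. ANAPC11 was called lower without siControl replicate 4 (log2 change −0.15, adjusted p = 0.048), in a fit that called 2428 genes lower. ANAPC2, the cullin-like partner of ANAPC11, had 20.6, 18.0 and 20.8 FPKM in siSGK1, against 20.7, 21.4 and 20.7 FPKM in siControl (log2 change −0.082, adjusted p = 0.31). The lowest value was in siSGK1 replicate 3, and without this library the log2 change of ANAPC2 was −0.018.

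Of the scaffold subunits, ANAPC5 was lower in every siSGK1 library and ANAPC1 and ANAPC4 overlapped between groups. ANAPC5 had 5.77, 6.39 and 6.39 FPKM in siSGK1, against 6.74, 7.05 and 6.67 FPKM in siControl (log2 change −0.13, 95% interval −0.26 to −0.0022, adjusted p = 0.097). ANAPC1, the largest subunit, had 2.10, 2.78 and 2.194 FPKM in siSGK1, against 2.22, 2.07 and 2.16 FPKM in siControl (log2 change 0.10, adjusted p = 0.42). Only siSGK1 replicate 3 stood above the rest, and without it the log2 change of ANAPC1 was −0.00026. ANAPC4 had 1.40, 1.48 and 1.42 FPKM in siSGK1, against 1.41, 1.15 and 1.495 FPKM in siControl (log2 change 0.068, adjusted p = 0.59). ANAPC10, which together with the coactivator forms the receptor for the destruction box of substrates, had 1.74, 2.06 and 1.90 FPKM in siSGK1, against 1.64, 1.99 and 1.80 FPKM in siControl (log2 change 0.051, adjusted p = 0.67). In 3 of the 10 subunits (CDC27, ANAPC11 and ANAPC5) the groups did not overlap, against 53.4% of all tested genes.

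Shares within the complex do not depend on a scaling that applies a single factor to each library, as total-read and TPM scaling do. Quantile normalization applies no single factor and can move them. ANAPC11 made up 42.9% ± 0.95 of the summed FPKM of the 10 subunits in siSGK1 and 45.9% ± 1.05 in siControl (SD, n = 3 each). The 4 TPR subunits of the arm together made up 29.8%, 31.6% and 30.4% in siSGK1, against 26.0%, 26.9% and 28.0% in siControl. These groups did not overlap, and the share of the arm was higher relative to the other subunits in every siSGK1 library. In mean log2 FPKM the 4 arm subunits exceeded the other 6 by 0.44 ± 0.022 in siSGK1 and by 0.25 ± 0.077 in siControl (SD, n = 3 each). ANAPC5, lower in every siSGK1 library, was counted among the other 6. The split was by place in the arm and not by TPR repeats, so it does not describe TPR proteins outside the arm. This grouping was made with the values known, and no test was run on it.

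**Figure D2:**
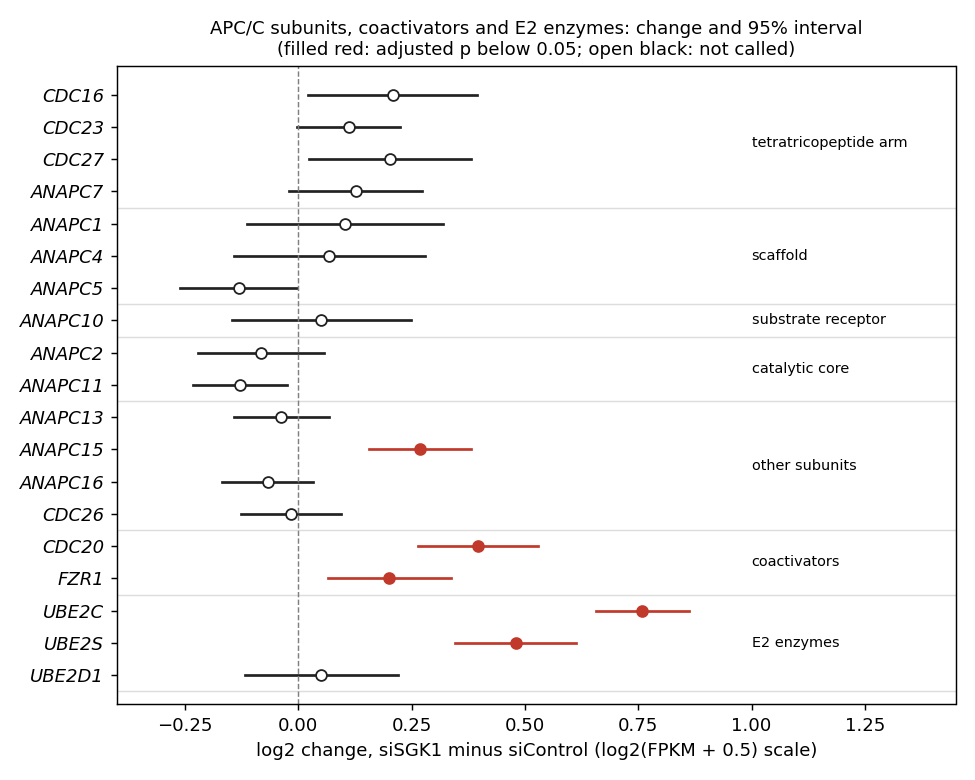
Log2 change of each gene (siSGK1 minus siControl, log2(FPKM + 0.5) scale) with its 95% interval, for the 10 subunits by role, the 4 other subunits, the coactivators and the E2 enzymes. Open black points were not called and filled red points had an adjusted p below 0.05. The 10 subunits lie between −0.13 and 0.21, while UBE2C lies at 0.76.

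Of the 4 other subunits in the table, ANAPC15 rose and 3 were not called. ANAPC15, which is needed for the turnover of the checkpoint complex bound to the APC/C, had 11.5, 10.6 and 11.02 FPKM in siSGK1, against 9.06, 8.92 and 9.25 FPKM in siControl. The groups did not overlap, and the log2 change was 0.27 (SE 0.049, adjusted p = 0.0031). ANAPC16 averaged 52.2 ± 0.4 FPKM in siSGK1 and 54.8 ± 2.2 FPKM in siControl (adjusted p = 0.25). ANAPC13 averaged 17.7 ± 0.4 FPKM in siSGK1 and 18.2 ± 0.6 FPKM in siControl (adjusted p = 0.55). CDC26, which caps the TPR protein CDC16, averaged 17.0 ± 0.1 FPKM in siSGK1 and 17.2 ± 0.8 FPKM in siControl (SD, n = 3 each, adjusted p = 0.82). With TPM scaling all 4 were called higher (adjusted p = 0.032 for ANAPC16, 0.020 for ANAPC13 and 0.017 for CDC26), beside the upward shift of all genes given with the scalings.

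Both coactivators rose. CDC20, which activates the complex in mitosis, had 135.4, 119.6 and 134.0 FPKM in siSGK1, against 100.8, 99.7 and 94.3 FPKM in siControl (log2 change 0.40, SE 0.058, adjusted p = 9.59e-04). FZR1, which takes over at mitotic exit and in G1, had 21.5, 19.1 and 22.1 FPKM in siSGK1, against 18.3, 18.2 and 17.8 FPKM in siControl (log2 change 0.20, SE 0.060, adjusted p = 0.026). Neither pair of groups overlapped. The call of FZR1 was lost in 5 of the 6 fits that left out a library, with siSGK1 replicate 3 as the exception, and its adjusted p in those 5 was 0.055 to 0.097. It was also lost with no filter on low levels (adjusted p = 0.085). The ratio of CDC20 to FZR1 in FPKM was 6.20 ± 0.13 in siSGK1 and 5.42 ± 0.12 in siControl (SD, n = 3 each).

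Promoter sequences are shown for both coactivators, CDC20 and FZR1, which rose, and for the subunits CDC23 and CDC16, which were not called, as examples with and without the motifs of cell cycle promoters. Each run is the 150 bases just before the RefSeq transcription start (GRCh38.p14), 5′ to 3′ on the gene's strand. Capitals mark CCAAT, the motif TTTGAA or TTTAAA of the cell cycle genes homology region (CHR), and the E2F motif (TTTGGCGC, TTTCCCGC, TTTGGCGG or TTTCGCGC), on either strand. They lie at chr1:43358831-43358980 (CDC20, plus strand), chr19:3506161-3506310 (FZR1, plus strand, the first of 2 listed starts), chr5:138213324-138213473 (CDC23, minus strand) and chr13:114234747-114234896 (CDC16, plus strand).
CDC20: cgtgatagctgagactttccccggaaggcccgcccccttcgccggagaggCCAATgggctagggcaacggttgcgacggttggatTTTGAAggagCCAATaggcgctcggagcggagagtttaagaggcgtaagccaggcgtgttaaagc
FZR1: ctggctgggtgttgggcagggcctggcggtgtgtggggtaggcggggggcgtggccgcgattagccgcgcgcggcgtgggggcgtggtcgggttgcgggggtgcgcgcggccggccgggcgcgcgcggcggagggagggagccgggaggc
CDC23: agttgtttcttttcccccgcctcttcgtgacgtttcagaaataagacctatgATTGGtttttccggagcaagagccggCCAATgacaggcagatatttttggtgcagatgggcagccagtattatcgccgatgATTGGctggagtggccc
CDC16: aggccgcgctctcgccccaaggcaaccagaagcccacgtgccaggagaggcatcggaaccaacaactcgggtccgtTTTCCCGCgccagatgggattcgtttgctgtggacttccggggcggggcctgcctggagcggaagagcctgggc

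Of these 3 motifs, the CDC20 run holds a CHR motif between a pair of CCAAT boxes, the FZR1 run holds none, the CDC23 run holds CCAAT boxes, and the CDC16 run holds an E2F motif. In the whole windows of 300 bases (250 before and 50 after each listed start), a CHR motif was found in 4 of the 10 subunit genes (ANAPC1, ANAPC7, ANAPC10 and CDC27), in 50% of 30 substrate genes and in 20.2% of the 8429 tested genes whose symbol matched the table. A CCAAT box was found in 5 of the 10 subunit genes, in 83.3% of the substrate genes and in 43.3% of the tested genes. An E2F motif was found in 2 of the 10 (CDC16 and CDC23), in 20% of the substrate genes and in 7.11% of the tested genes, and a GC box (GGGCGG) in 8 of the 10, in 76.7% of the substrate genes and in 78.5% of the tested genes. ANAPC10 and ANAPC11 have 4 listed starts each, any of which could give a match.

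Of the 3 ubiquitin-conjugating enzymes (E2) of the complex 2 rose. UBE2C, which starts ubiquitin chains on APC/C substrates, had 164.7, 167.5 and 170.6 FPKM in siSGK1, against 102.3, 99.7 and 94.6 FPKM in siControl (log2 change 0.76, SE 0.045, adjusted p = 1.39e-05). UBE2S, which lengthens those chains, had 155.6, 165.4 and 168.9 FPKM in siSGK1, against 125.8, 115.0 and 110.4 FPKM in siControl (log2 change 0.48, SE 0.058, adjusted p = 3.87e-04). For both enzymes every siSGK1 library lay above every siControl library. The general E2 UBE2D1, which can also start chains, averaged 3.34 ± 0.15 FPKM in siSGK1 and 3.21 ± 0.29 FPKM in siControl (SD, n = 3 each, adjusted p = 0.62). A single scaling factor per library cancels in the ratio of UBE2C to the RING subunit it binds. UBE2C over ANAPC11 was 3.11, 3.37 and 3.35 in siSGK1, against 1.81, 1.74 and 1.75 in siControl. The groups did not overlap in this ratio, which was chosen with the values known and not tested.

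Of the transcripts whose protein products the APC/C marks for destruction, most rose. Among 34 reported substrates, all tested, 30 rose, 0 fell and 4 were not called, with a median log2 change of 0.52. Of all tested genes 17.9% were called higher and 22.7% lower. The list was chosen with earlier results of these data known. UBE2C, CDC20, BUB1, SKP2 and PTTG1 count in this list as well as in another. The 4 without a call were JUNB (log2 change −0.17), DTYMK (0.14), ANLN (0.15) and TK1 (0.048). The smallest p-values belonged to TACC3, AURKB, UBE2C and RRM2. TACC3, a spindle microtubule protein, had 23.1, 24.1 and 23.8 FPKM in siSGK1, against 13.1, 12.7 and 12.4 FPKM in siControl (log2 change 0.87, SE 0.044, adjusted p = 8.82e-06). The Aurora kinase AURKB and the ribonucleotide reductase subunit RRM2 rose by log2 changes of 0.98 and 0.77. Cyclin B1 and securin, the substrates whose destruction starts anaphase, were named after their values were seen. CCNB1 (cyclin B1) averaged 172.7 ± 4.5 FPKM in siSGK1 and 115.2 ± 4.0 FPKM in siControl, and PTTG1 (securin) averaged 131.2 ± 3.1 FPKM in siSGK1 and 107.3 ± 4.3 FPKM in siControl (SD, n = 3 each; log2 changes 0.58 and 0.29, adjusted p = 4.11e-05 and 0.0014).

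Genes of the checkpoint and other inhibitors of the APC/C also mostly rose. Of 12 tested genes 10 rose, 1 fell and 1 was not called, with a median log2 change of 0.43. The shares over all tested genes were 17.9% higher and 22.7% lower. ZW10, part of a kinetochore complex that recruits the checkpoint proteins, had 8.44, 9.33 and 8.65 FPKM in siSGK1, against 4.38, 4.63 and 4.80 FPKM in siControl (log2 change 0.87, SE 0.058, adjusted p = 2.35e-05). TRIP13, the ATPase that remodels MAD2, rose by a log2 change of 0.54. BUB1B (BUBR1), a component of the checkpoint complex that blocks CDC20, and BUB1, a kinetochore kinase, rose by 0.54 and 0.62. The gene without a call was KNTC1 (log2 change 0.13, adjusted p = 0.20). The gene that fell was MAD2L1BP (p31comet), which works with TRIP13 to silence the checkpoint. It averaged 21.6 ± 1.3 FPKM in siSGK1 and 24.4 ± 0.4 FPKM in siControl (SD, n = 3 each, log2 change −0.18, adjusted p = 0.026). No gene of the list was called lower in 5 of the 6 fits that left out a library, the exception being the fit without siSGK1 replicate 4.

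**Figure D3:**
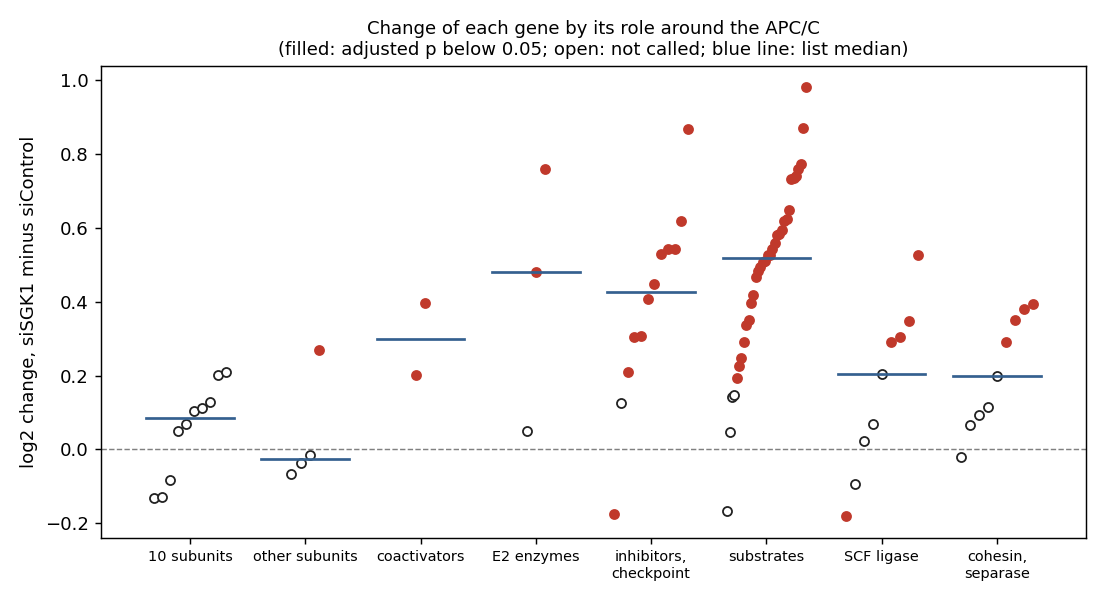
Log2 change (siSGK1 minus siControl) of every gene in 8 lists arranged by role around the APC/C, with the list median as a blue line. Filled points had an adjusted p below 0.05. The 10 subunits hold no filled point, while 30 of 34 substrates do, beside 40.6% of all tested genes called.

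Lists of other cell cycle machinery were set beside these, and beside the 17.9% of all tested genes called higher and the 22.7% called lower. In the SCF ubiquitin ligase, which works alongside the APC/C in G1 and S phase, 4 of 9 tested genes rose, 1 fell and 4 were not called (median log2 change 0.21). Those that rose were the substrate receptor SKP2 (log2 change 0.53), its cofactor CKS1B (0.35), the F-box protein CCNF (0.30) and the cullin CUL1 (0.29). SKP1, the adaptor, fell by 0.18 on the log2 scale (adjusted p = 0.030), and no gene of the list was called lower without siSGK1 replicate 3 or 4 or siControl replicate 3 or 4. The same was true with the replicate block, with no filter on low levels, and with TPM or total-read scaling. Of 9 genes of cohesin, separase and securin 4 rose and 5 were not called (median 0.20). TPM scaling called 8 of them higher, beside 47.2% of all tested genes. Separase, ESPL1, the protease that APC/C activity releases, averaged 6.54 ± 0.26 FPKM in siSGK1 and 4.86 ± 0.11 FPKM in siControl (SD, n = 3 each). The cohesin subunits RAD21 and SMC3 rose by log2 changes of 0.38 and 0.35, and PTTG1 was the fourth. Whether these counts differ between lists was not tested.

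With the deposited FPKM the median of all tested genes lay near 0, and scaling by total reads or to TPM moved it to 0.12 and 0.18. The library sizes behind the deposited FPKM match median-of-ratios size factors, which set that median near 0 by construction. With total-read scaling CDC16, CDC23, CDC27 and ANAPC7 were called higher (log2 changes 0.34, 0.25, 0.33 and 0.26), beside 49.0% of all tested genes called, 36.1% higher and 12.9% lower. With TPM scaling these 4 and ANAPC2 were called higher, 5 of 10 beside 57.1% of all tested genes called, 47.2% higher and 9.80% lower. Quantile normalization called CDC23 alone (log2 change 0.16, adjusted p = 0.029) and 40.9% of all genes, 20.9% higher and 19.9% lower. The limma-voom fit of recovered reads called CDC16 and CDC27 higher and ANAPC11 lower, beside 45.0% of all genes, 20.2% higher and 24.9% lower. The same 3 subunits were called among genes of at least 5 FPKM (adjusted p = 0.0499, 0.0496 and 0.047), where 50.5% were called, 19.7% higher and 30.8% lower. With the replicate number as a block CDC16 was called, beside 38.2% of all genes, 16.8% higher and 21.3% lower. ANAPC11 turned positive under total-read and TPM scaling (0.010 and 0.073), as did ANAPC2 (0.055 and 0.12), and ANAPC5 did under TPM (0.058). The subunits' median was 0.085 as deposited, 0.20 by total reads and 0.24 by TPM, above the median of all genes each time. Under all 4 scalings CDC16 and CDC27 had the highest log2 changes of the 10 subunits and ANAPC5 and ANAPC11 the lowest.

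**Figure D4:**
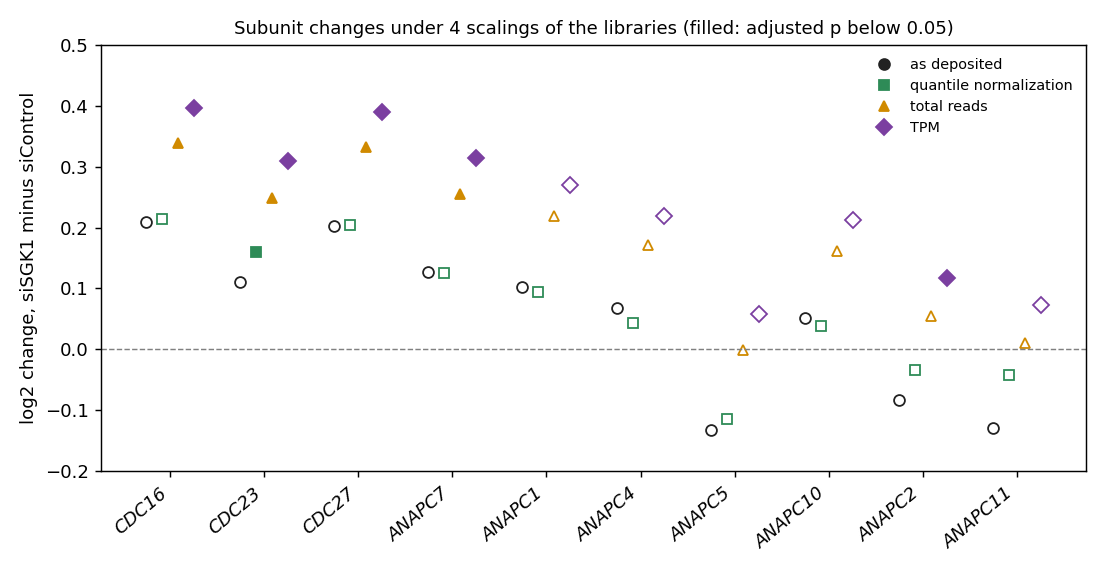
Log2 change (siSGK1 minus siControl) of the 10 subunits under 4 scalings of the libraries, ordered by role. Filled symbols had an adjusted p below 0.05. Scaling to TPM lifts every subunit, to 0.40 for CDC16 and 0.058 for ANAPC5, while the deposited scaling leaves all 10 open.

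CDC23 and KIF20A, a mitotic kinesin, share 68 exon bases on opposite strands, where their 3′ ends meet. KIF20A averaged 39.3 ± 0.6 FPKM in siSGK1 and 40.5 ± 1.4 FPKM in siControl (SD, n = 3 each, adjusted p = 0.44), so neither gene of this pair was called. ANAPC10 shares 469 exon bases, 10.4% of its length, with the opposite-strand gene ABCE1, a ribosome recycling factor, which averaged 6.57 ± 0.69 FPKM in siSGK1 and 6.49 ± 0.38 FPKM in siControl (SD, n = 3 each, adjusted p = 0.90). ANAPC11 shares 62 exon bases with ALYREF and 27 with PCYT2 on the opposite strand. It shares 247 with NPB on the same strand, listed at 0 in every library. ANAPC7 shares 683 exon bases, 11.4% of its length, with AC144548.1 on the same strand, listed at no more than 0.108 FPKM. ANAPC5, ANAPC1 and CDC27 share 249, 144 and 126 exon bases with opposite-strand noncoding genes, each listed at no more than 0.234 FPKM. Whether the counting used strand is not stated in the labels, so the values of the genes with opposite-strand overlaps are uncertain to that extent. The overlap of ANAPC7 and that of ANAPC11 with NPB are on the same strand, so the values of both subunits are uncertain with either setting. The 4 pseudogene copies looked up for ANAPC1, ANAPC10 and CDC27 reached at most 0.104 FPKM, and how reads that fit both a gene and its copy were counted is not given either.

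In the table's coordinates, read as GRCh38, the genes of the TPR arm lie at chr13:114234887-114272723 (CDC16, plus strand), chr5:138187648-138213343 (CDC23, minus), chr17:47117703-47189422 (CDC27, minus) and chr12:110372900-110403730 (ANAPC7, minus). The catalytic genes lie at chr9:137174784-137188549 (ANAPC2, minus) and chr17:81890790-81900991 (ANAPC11, plus). The scaffold genes lie at chr2:111766271-111884690 (ANAPC1, minus), chr4:25377213-25418498 (ANAPC4, plus) and chr12:121308245-121399896 (ANAPC5, minus), and ANAPC10 lies at chr4:144831908-145098541 (minus). For ANAPC1 GENCODE 29 places the lower end at 111611639, so the table used a shorter gene model.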

How the data were processed

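PolyA RNA was isolated with TRIzol and made into libraries with the NEBNext Ultra kit, per the labels' protocols. Per the submitters' processing notes, featureCounts 1.5.0-p3, HISAT2 2.0.5 and bcl2fastq 2.19 were used, with the build hg19. The deposited values are FPKM, 1 column per library, with gene lengths in bases as deposited. Of the gene identifiers shared with GENCODE 29 (GRCh38), 97.4% had identical coordinates, so positions are read as GRCh38. FPKM times length gave whole reads for 100% of values above 0 (tolerance 0.001), and the library sizes these imply match median-of-ratios size factors computed over 19967 genes.

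limma 3.58.1 (R 4.3.3, intensity trend, two-sided) was applied to the log2 of FPKM plus 0.5, all genes with a mean of at least 1 FPKM together, with Benjamini-Hochberg adjustment at 0.05. Fold changes on this scale understate those of low genes. limma was first tested on simulated data (dispersion 0.002). There it recovered 29 of 50 genes changed 1.25-fold and 47 of 48 tested genes changed 1.5-fold, and called 0.128% of unchanged genes. Of the 11945 genes run there, 11675 were tested genes left unchanged, while in the data 40.6% of all tested genes were called. The recovery, and the share of unchanged genes called, with so many changed genes was not tested. Changes smaller than 1.25-fold were not simulated. All gene p-values are from this fit unless another setting is named. They measure the spread between 3 libraries a group. Replicate libraries differed by more than counting noise (chi-square per degree of freedom 3.14 to 7.60), and no 2 held identical values. Counting error limits the lowest subunits most: siSGK1 replicate 2 held 231 reads of ANAPC10 and 6274 of ANAPC11.

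Members and lists were chosen with earlier results of these data known. Named were all 10 subunits, the other subunits, coactivators and E2 enzymes, and in each further list up to 4 genes with the smallest p and those called against the list's majority. Promoters are RefSeq's (GRCh38.p14), and the gene models and transcripts are GENCODE's. Python 3.11.15, numpy 2.4.6, pandas 2.3.3, scipy 1.17.1 and matplotlib 3.10.9 were used. Alternatives covered pseudocounts, level filters, scalings, limma-voom on recovered reads, the intensity trend, a replicate block and leaving out each library. A further marker list is not reported here.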

Additional observations from a re-analysis of the deposited data

How the results depend on the processing

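Calls among the 10 subunits depended on the setting. Called higher were 2 when only genes averaging 5 FPKM or more were kept (1282 of all genes), 1 with quantile normalization, 5 with TPM scaling, 4 with total-read scaling, 2 with limma-voom and 1 (CDC16, adjusted p = 0.030) with the replicate block, against 0 as reported. Leaving out a library gave 0 to 2. Called lower was 1 (ANAPC11) under that filter and with limma-voom, and 0 to 1 when a library was left out. The level filter of 5 removed 3 subunits and tested fewer genes at unchanged log2 changes. Over all genes, 5644 were higher and 1171 lower with TPM scaling and 4309 and 1546 with total-read scaling, against 2143 and 2709 as deposited. Substrates called higher were 30 to 33 of 34, or 27 under the filter of 5 FPKM, which removed 3 of them. Of the substrates 1 was called lower under the filter of 5 FPKM and with limma-voom, and 0 to 1 when a library was left out. In the checkpoint list 0 were called lower with no level filter, TPM or total-read scaling, and 0 to 1 when a library was left out. Total-read and TPM scaling apply a single factor to each library and so shift all its genes together. Why these factors differed between the groups, and the cause of the other shifts, was not tested.

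Signs turned for ANAPC2 (0.12 TPM, 0.055 total reads), ANAPC5 (0.058 TPM), ANAPC11 (0.073 TPM, 0.010 total reads), and under quantile, TPM and total-read scaling for ANAPC13 (0.011, 0.16, 0.10), ANAPC16 (0.019, 0.13, 0.072) and CDC26 (0.029, 0.18, 0.12). Leaving out a library gave −0.00026 (without siSGK1 replicate 3) to 0.17 for ANAPC1, −0.013 (without siControl replicate 3) to 0.12 for ANAPC4, −0.0030 (without siControl replicate 2) to 0.11 for ANAPC10, −0.052 to 0.012 (without siControl replicate 3) for CDC26 and −0.016 (without siControl replicate 2) to 0.093 for UBE2D1. SGK1 was called lower in every setting that tested it (the filter of 5 FPKM removed it). Deviations of same-numbered libraries had correlations of 0.12, 0.014 and −0.10, against −0.16 to 0.15 for other pairs. With 3 libraries a group, these do not settle whether the libraries were paired. With replicate numbers as a block 2011 genes were higher and 2549 lower.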
